A study of Mus musculus with 2 samples.

Results

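The 9 genes of the Arp2/3 complex, Actr2, Actr3, Arpc1a, Arpc1b, Arpc2, Arpc3, Arpc4, Arpc5 and Arpc5l, were taken by symbol from the 32285 features counted in splenic regulatory T cells (Tregs) of 7-day-old C57BL/6J mice, and all 9 were detected in both libraries. The libraries held cells sorted as CD4+ and YFP+ that did not take up the dead-cell dye 7AAD, 1 library from WT mice and 1 from KO mice. KO mice were Zfp335 fl/fl with Foxp3-Cre, so that Zfp335, a zinc finger transcription factor, is deleted in cells that express the Treg factor Foxp3. WT mice carried Foxp3-Cre too, and the YFP reporter is part of that allele. How many mice were pooled per library is not stated, so no value below has a replicate. The intervals given are exact 95% intervals, cover counting error only, and say nothing of the spread between mice. Because no mouse-level spread is known, no test between genotypes was run.

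The Arp2/3 complex binds the side of an actin filament and starts a new filament there, which builds the branched networks of lamellipodia, of endocytic sites and of the immune synapse of T cells. Actr2 and Actr3 encode ARP2 and ARP3, the actin-like subunits that form the start of the new filament. Arpc2 and Arpc4 encode the core that holds the mother filament, Arpc3 a subunit bound to ARP3, and Arpc1a or Arpc1b and Arpc5 or Arpc5l encode interchangeable forms of the remaining positions. A complex carries 1 copy of each position, and it is silent until a factor of the WASP or WAVE family switches it on.

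Actr2 lies on chromosome 11 at 20062304-20112913, minus strand, and Actr3 on chromosome 1 at 125392905-125435727, minus strand (mouse GRCm38, GENCODE vM21). Neither overlaps another annotated gene. Arpc3, Arpc4 and Arpc5l overlap a gene on their own strand, Gm42829, Ttll3 and Wdr38 respectively, so that reads there could be shared between genes or dropped. The start regions of Actr2 and Actr3 are shown because these are the paired actin-like subunits and Actr2 was the member with the lowest KO to WT ratio in most T cell states. The sequences are from RefSeq (GRCm38.p6) and run 5′ to 3′ on the minus strand, from 250 bases before to 50 bases after the gene start, at chr11:20112902-20113201 for Actr2 and chr1:125435678-125435977 for Actr3. Capitals mark, on either strand, the GC box GGGCGG, the CCAAT box, the ETS core CCGGAA and the NRF1 core TGCGCA.
Actr2: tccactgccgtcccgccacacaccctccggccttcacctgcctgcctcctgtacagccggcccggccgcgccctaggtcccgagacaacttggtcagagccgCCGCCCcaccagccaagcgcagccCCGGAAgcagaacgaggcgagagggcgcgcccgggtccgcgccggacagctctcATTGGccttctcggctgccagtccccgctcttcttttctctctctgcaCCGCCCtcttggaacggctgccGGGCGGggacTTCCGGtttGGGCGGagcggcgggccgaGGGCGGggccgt
Actr3: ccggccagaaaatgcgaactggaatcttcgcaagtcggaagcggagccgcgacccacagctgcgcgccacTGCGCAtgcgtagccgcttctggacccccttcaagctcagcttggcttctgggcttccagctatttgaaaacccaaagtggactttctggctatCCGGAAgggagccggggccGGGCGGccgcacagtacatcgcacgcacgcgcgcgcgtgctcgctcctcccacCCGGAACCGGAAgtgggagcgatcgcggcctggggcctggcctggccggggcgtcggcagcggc
The Actr2 window held 5 GC boxes, 1 CCAAT box and 2 ETS cores, and no NRF1 core. The Actr3 window held 1 GC box, 3 ETS cores and 1 NRF1 core, and no CCAAT box. Of 32851 mouse promoters of the same length, 35.7% held a GC box, 37.4% a CCAAT box, 14.9% an ETS core and 7.76% an NRF1 core. Neither window held TGACG, present in 20.8% of promoters, or a CArG box, present in 1.63%. The RefSeq table held 8 of the 9 promoters, without Arpc5l. Their GC content was 52.7% for Arpc3, 59.7% for Arpc4, 72.0% for Actr2 and 73.7% for Arpc5, against a median of 52.7% over all promoters. A match says only that these letters occur in the window.

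Each droplet carries a barcode and each captured transcript a unique molecular identifier (UMI), and levels are given as CPM, in which each group of barcodes is brought to a common UMI total. A barcode needed 300 genes or more and no more than 5% mitochondrial UMIs, which left 8053 WT barcodes with a median of 5061 UMIs and 13767 KO barcodes with a median of 2713 UMIs. Only 29 barcode sequences occurred in both libraries. Zfp335 had 435 UMIs (8.03 CPM) in WT and 58 UMIs (1.01 CPM) in KO, a KO to WT ratio of 0.125 (0.0936 to 0.165). Which part of Zfp335 is deleted was not set against the 3′ end that is read here, so this is a limited check of the labels. Foxp3 was at 37.0 CPM in WT and 41.2 CPM in KO, and Cd4 at 123 and 113 CPM. Clusters were named from marker genes, with the Arp2/3 and other actin genes kept out of the clustering.

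The resting Treg-like cluster, led by Pik3ip1, Ly6c1, Dapl1 and Satb1, held 2212 WT and 5006 KO barcodes. The effector Treg-like cluster, led by Klrg1, S100a4 and Ccl5, held 2499 WT and only 161 KO barcodes. The S-phase cycling-like cluster, led by histone genes, held 636 WT and 1109 KO barcodes. Cluster 5, with no class of its own and led by Asns and Srm, held 470 WT and 1144 KO barcodes. A T cell cluster led by haemoglobin and neutrophil granule RNA held 1066 WT and 4301 KO barcodes, with median depths of only 683 and 1411 UMIs. Cluster 6, led by the heat shock genes Hspa1b and Hspa1a, held 578 WT and 303 KO barcodes. Cluster 7 (T cell barcodes led by Camp and Ngp, 12 WT and 826 KO) and cluster 13 (led by C1qb, 40 WT and 6 KO) were too uneven or small for a comparison. The clusters of other lineages held 540 WT and 911 KO barcodes, erythroid-like, neutrophil-like or B cell-like, although the sort was for CD4+YFP+ cells.

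Within WT, effector Treg-like barcodes had the highest level of the complex. The 9 genes together stood at 4757 CPM (4728 to 4787) in effector and 3311 CPM (3275 to 3347) in resting Treg-like barcodes, a ratio of 1.44 (1.42 to 1.46). All 9 genes were higher in the effector cluster. Arpc5 was at 768 against 472 CPM (ratio 1.63, 1.57 to 1.68) and Arpc1b, the ARPC1 form of blood cells, at 956 against 616 CPM (1.55, 1.51 to 1.60). Actr2 was at 170 against 133 CPM (1.28, 1.20 to 1.36) and Arpc5l only at 202 against 188 CPM (1.08, 1.02 to 1.14). The median ratio was 1.43 over the members and 0.993 over all 10589 genes with at least 50 UMIs in this contrast. In KO the same contrast gave 3973 against 3299 CPM for the sum, a ratio of 1.20 (1.17 to 1.24), and Arpc5l was at 170 against 173 CPM.

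The order of the summed level in WT ran from effector over neutrophil-like (4141 CPM, 4066 to 4217), S-phase cycling-like (3790, 3753 to 3828), the globin and granule RNA cluster (3616, 3495 to 3740), B cell-like (3431, 3176 to 3702), resting, cluster 5 (3165, 3117 to 3214) and cluster 6 (2833, 2736 to 2933) to erythroid-like barcodes (1401, 1356 to 1446). The interval of the B cell-like sum overlapped those of the globin and granule RNA cluster, resting Treg-like barcodes and cluster 5, and the other neighbours did not overlap in counting error. In KO the S-phase cycling-like sum was 3004 CPM (2972 to 3036), below the resting sum, whereas in WT it was above it.

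**Figure D1:**
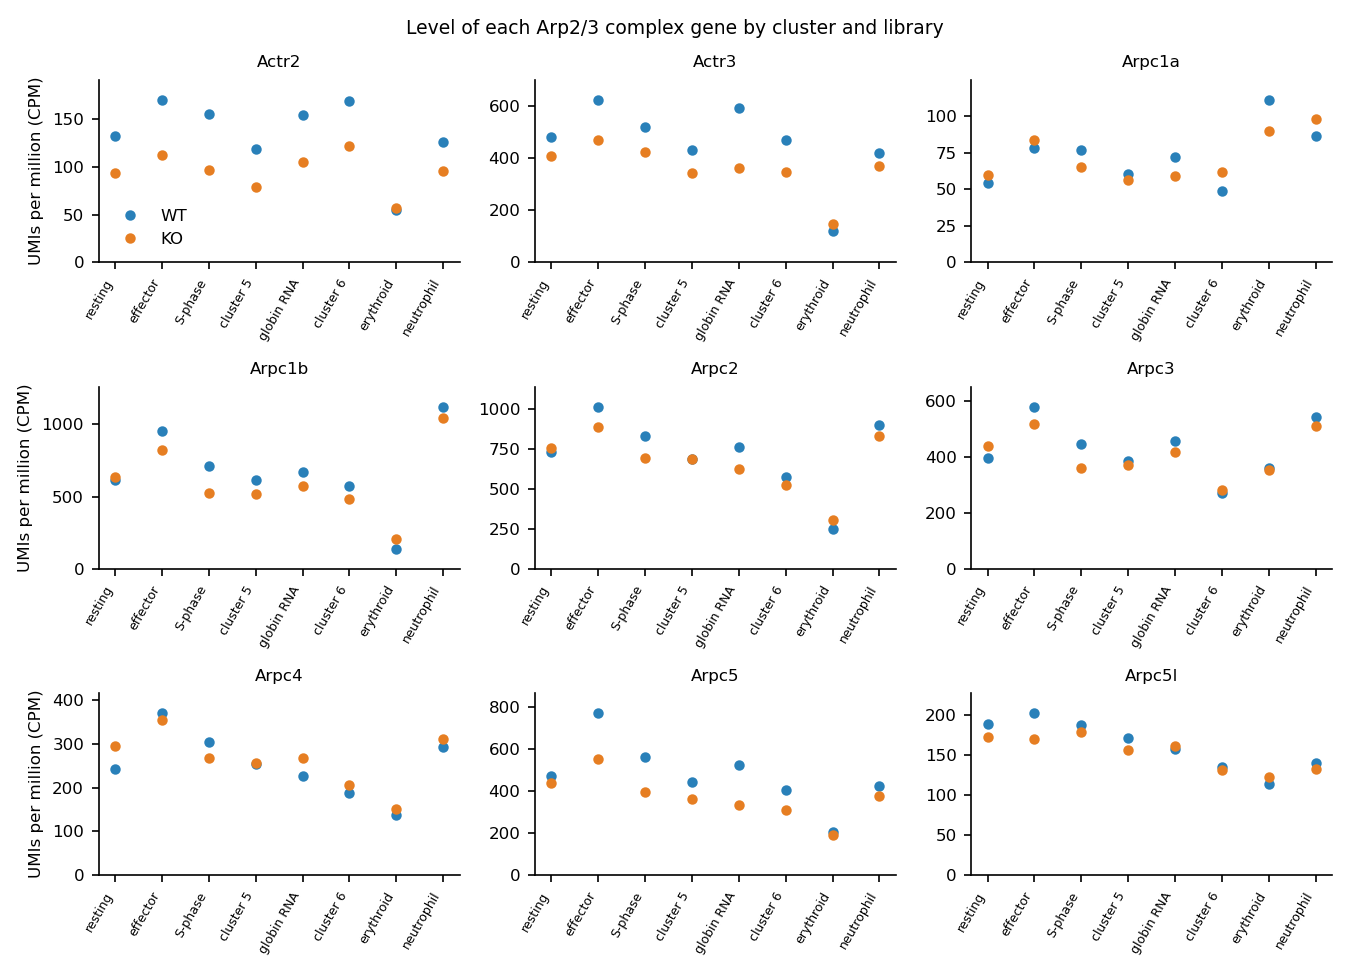
Level of each of the 9 genes in CPM (vertical axis from 0) in 8 clusters, with 1 point for the WT and 1 for the KO library. In WT effector barcodes Actr2 stood at 170 CPM and Arpc5 at 768 CPM. The erythroid and neutrophil points are clusters 8 and 9 alone, while the erythroid-like and neutrophil-like classes also hold clusters 10 and 11. In cluster 8 Actr2 was near equal, at 55.0 CPM in WT and 57.3 CPM in KO. In the erythroid-like class it was at 51.2 and 45.3 CPM.

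In resting Treg-like barcodes Actr2 was lower in KO while the summed complex was level. Its level was 133 CPM (126 to 141) in WT, from 1307 UMIs, and 93.3 CPM (89.3 to 97.6) in KO, from 1968 UMIs. The ratio was 0.701 (0.653 to 0.752), a log2 ratio of -0.51. The sum of all 9 genes was 3311 CPM in WT and 3299 CPM in KO, a ratio of 0.996 (0.983 to 1.01). A gene was counted as low where its KO to WT ratio was below 0.8, and as high where its WT to KO ratio was below 0.8. Actr2 was the 1 low gene of the 9 members, and no member was high. Over all 10379 genes with at least 50 UMIs in these barcodes, 26.0% were low and 9.55% high, with a median ratio of 0.944. Of the genes with at least 1000 UMIs there, as Actr2 has, 12.9% were low. A low ratio as such was therefore common, and 13.3% of all tested genes were at or below that of Actr2. The study had picked Actr2 from these same libraries, so its lower level in KO here is not independent evidence. In other mice the study reported lower Actr2 RNA too, in Zfp335-deficient Tregs from tamoxifen-treated ER-Cre and from heterozygous Foxp3-Cre animals. It also reported Zfp335 binding at the Actr2 promoter. When overexpressed in Zfp335-deficient resting Tregs, Actr2 did not restore the reduced frequency of ICOS+ effector Tregs in that study. The fatty acid oxidation gene Hadha did. Those data were not examined here.

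The partners of Actr2 in the resting state spread on both sides of 1, with a median of 1.04. Actr3, the other actin-like subunit, was the lowest of them, at 482 CPM (469 to 496) in WT and 407 CPM in KO (ratio 0.845, 0.815 to 0.876). The core subunit Arpc2 was at 727 and 758 CPM (1.04, 1.01 to 1.07). Its core partner Arpc4 was the highest in ratio, at 242 and 295 CPM (1.22, 1.16 to 1.28). Arpc3, which sits on ARP3, was at 395 and 440 CPM (1.11, 1.07 to 1.16). The ARPC1 forms were near 1, Arpc1a at 54.5 and 59.8 CPM (1.10, 0.990 to 1.22) and Arpc1b at 616 and 638 CPM (1.03, 1.00 to 1.07). The ARPC5 forms were slightly lower in KO and alike in ratio, Arpc5 at 472 and 435 CPM (0.921, 0.889 to 0.954) and Arpc5l at 188 and 173 CPM (0.919, 0.869 to 0.973). Levels are not compared between genes, since UMIs of a 3′ assay depend on each gene's own 3′ end.

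**Figure D2:**
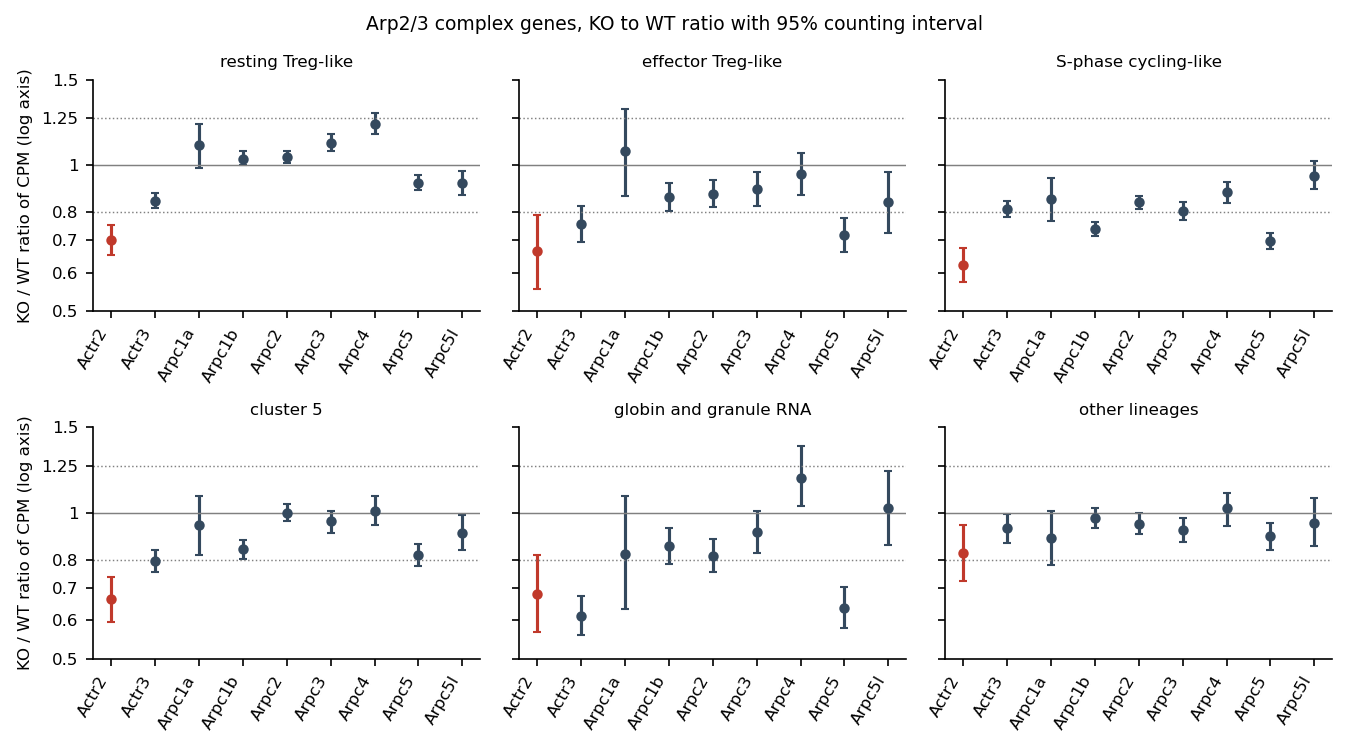
KO to WT ratio of CPM (log axis) of each of the 9 genes in 6 groups of barcodes, with 95% counting intervals, Actr2 in red and dotted lines at the bounds of low and high ratios. Actr2 is the lowest member in 5 of the 6 panels, and in the globin and granule RNA panel Actr3 and Arpc5 lie lower.

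The ratio to partners removes the total from the comparison. Actr2 made up 4.02% (3.81 to 4.24) of the UMIs of the 9 genes in WT resting Treg-like barcodes and 2.83% (2.71 to 2.95) in KO, an odds ratio of 0.695 (0.647 to 0.747). Like its level, this share is not independent evidence, since the study had picked Actr2 from these libraries. Because Actr2 had the lowest KO to WT ratio of the 9 genes, its odds ratio against each partner alone had to be below 1. All 8 odds ratios had intervals below 1 as well. They ran from 0.575 (0.528 to 0.626) against Arpc4, with 55.0 Actr2 UMIs per 100 Arpc4 UMIs in WT and 31.6 in KO, to 0.830 (0.767 to 0.898) against Actr3, with 27.6 and 22.9. Actr3 in turn made up 14.6% and 12.4% of the complex UMIs (odds ratio against the other 8 genes 0.826, 0.795 to 0.859). Arpc4 made up 7.32% and 8.95%, with an interval of its odds ratio from 1.19 to 1.31.

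A lower Actr2 share in KO was also measured in the other T cell states. It was 3.58% in WT and 2.85% in KO among effector Treg-like barcodes (odds ratio 0.790, 0.658 to 0.943), 4.11% and 3.24% among S-phase cycling-like barcodes (0.779, 0.720 to 0.844) and 3.76% and 2.79% in cluster 5 (0.735, 0.660 to 0.820). In the globin and granule RNA cluster it was 4.28% and 3.62% (0.840, 0.699 to 1.01) and in cluster 6 it was 5.96% and 4.95% (0.822, 0.610 to 1.10), where both intervals reach 1. In cluster 6 the nuclear RNA Malat1 took 4.96% of the UMIs in WT and 4.71% in KO. Mitochondrial RNA took 3.50% and 3.35% there, and ribosomal protein RNA 20.3% and 24.3%. The part of RNA quality in the Actr2 share of cluster 6 was not tested. The resting odds ratio was 0.879 times (0.727 to 1.06) that of effector, 0.891 times (0.802 to 0.991) that of S-phase cycling-like and 0.945 times (0.831 to 1.07) that of cluster 5 barcodes, so that 2 of these 3 intervals hold 1. With a finer clustering, 11 of 13 T-lineage clusters with at least 500 complex UMIs per library had an odds ratio below 1, 7 of them with the interval below 1. The range over those 13 was 0.596 to 1.29.

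**Figure D3:**
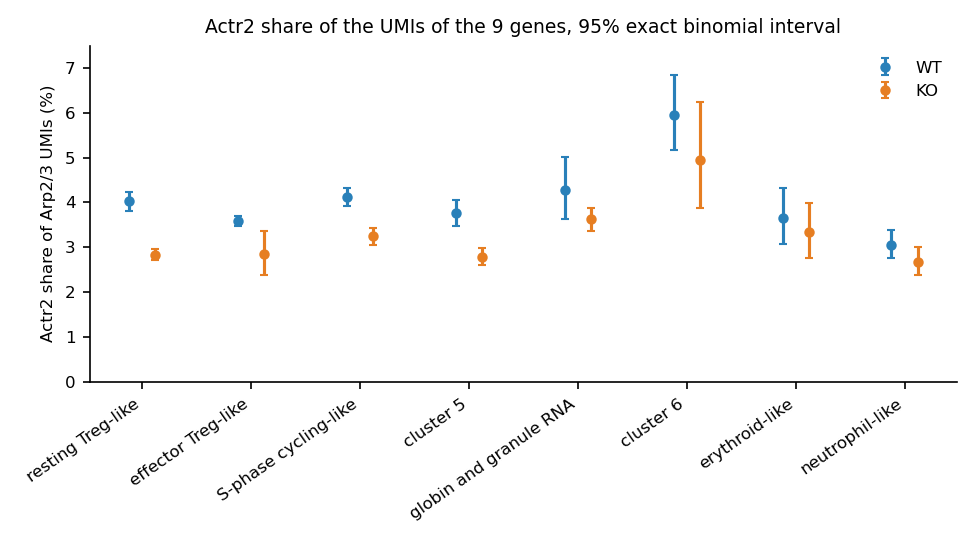
Share of Actr2 in the UMIs of the 9 genes (percent, vertical axis from 0) in WT and KO for 8 groups of barcodes, with exact 95% binomial intervals. The KO point lies below the WT point in each group, from 2.83% against 4.02% in resting to 3.34% against 3.65% in erythroid-like barcodes, where the intervals overlap.

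In effector Treg-like barcodes the summed complex was 4757 CPM in WT and 3973 CPM in KO, a ratio of 0.835 (0.811 to 0.860), and the KO side rests on 161 barcodes. Actr2 was at 170 and 113 CPM (0.665, 0.555 to 0.791). Arpc5 was at 768 and 552 CPM (0.719, 0.664 to 0.778) and Actr3 at 621 and 470 CPM (0.758, 0.695 to 0.825). These were the 3 low genes of 9 members, while 27.6% of the 10051 genes tested in this state were low and 18.9% high. Arpc1a was at 78.0 and 83.5 CPM (1.07, 0.864 to 1.31). The intervals of Actr2 against Actr3 (odds ratio 0.878, 0.718 to 1.07) and against Arpc5 (0.925, 0.759 to 1.12) held 1, so that Actr2 could not be told from these partners there. The other 6 pairs had intervals below 1.

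In S-phase cycling-like barcodes Actr2 had its lowest ratio of the named T cell states, at 156 CPM in WT and 97.2 CPM in KO (0.623, 0.576 to 0.674). Arpc5 was at 562 and 393 CPM (0.699, 0.672 to 0.727) and Arpc1b at 711 and 526 CPM (0.740, 0.715 to 0.766). Arpc5l was the member nearest to 1, at 187 and 179 CPM (0.953, 0.894 to 1.02). The sum was 3790 and 3004 CPM (0.792, 0.781 to 0.804). Here 3 of 9 members were low against 18.1% of the 9741 genes tested, and 0 were high against 20.6%. The median over all genes was 1.02, that of the members 0.812. The median depth was 14453 UMIs in WT and 8316 in KO barcodes, and its part in these ratios was not tested in this state.

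In cluster 5 Actr2 was at 119 and 78.9 CPM (0.663, 0.596 to 0.738) and Actr3 at 432 and 344 CPM (0.795, 0.754 to 0.839), the 2 low genes of 9 members, with 24.2% of all genes low and 12.6% high. Arpc2 stood at 688 CPM in both libraries. In the globin and granule RNA cluster 3 of 9 members were low against 29.9% of all genes, and 0 were high against 17.1%. There Actr3 was at 592 and 363 CPM (0.613, 0.559 to 0.673), Arpc5 at 523 and 333 CPM (0.636, 0.577 to 0.702) and Actr2 at 155 and 105 CPM (0.678, 0.567 to 0.816), while Arpc4 was at 227 and 268 CPM (1.18, 1.03 to 1.37). Actr2 thus had rank 3 from the lowest in that cluster. Haemoglobin took 0.514% of its UMIs in WT and 1.14% in KO, and the part of that in the member ratios was not tested.

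In barcodes of other lineages, pooled, Actr2 was at 92.1 CPM in WT and 76.0 CPM in KO (0.825, 0.724 to 0.941), and 0 of 9 members were low or high, where 25.2% of all genes were low and 10.8% high. The Actr2 share of the complex was 3.25% and 2.85% (odds ratio 0.874, 0.765 to 0.998). Taken by class, every interval held 1. The odds ratio was 0.911 (0.701 to 1.18) in erythroid-like, 0.871 (0.741 to 1.02) in neutrophil-like and 0.754 (0.378 to 1.45) in B cell-like barcodes. Within the neutrophil-like class it was 0.816 (0.673 to 0.989) in cluster 9 and 1.05 (0.769 to 1.41) in cluster 11. The resting odds ratio was 0.795 times (0.685 to 0.922) that of the pooled other lineages, an interval of counting error only. Zfp335 itself was at 6.70 CPM (38 UMIs) and 2.91 CPM (16 UMIs) in these barcodes. T cell receptor, CD3 and Cd4 RNA averaged 129 CPM per gene in WT and 220 CPM in KO, against 1036 and 1028 CPM in resting Treg-like barcodes. Its part in the Actr2 share was not tested.

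Over all kept barcodes, where the states are mixed in unlike shares, all 9 members were below 1. Actr2 was the lowest at 147 CPM (144 to 151) in WT and 92.1 CPM in KO (0.625, 0.603 to 0.647). Arpc5 was at 588 and 389 CPM (0.661, 0.650 to 0.673), Actr3 at 520 and 380 CPM (0.731, 0.718 to 0.744) and Arpc4, the highest in ratio, at 301 and 273 CPM (0.907, 0.887 to 0.927). Low were 4 of 9 members and 26.3% of the 12727 genes tested, and high were 0 members and 11.4% of the genes. Actr2 made up 3.78% and 3.02% of the complex UMIs (odds ratio 0.792, 0.764 to 0.820). Effector barcodes, in which the complex was highest, are 2499 of the WT and 161 of the KO barcodes, so the mixture and the levels within states both enter this comparison.

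Depth and transcript length were set beside the resting result. Barcodes in the resting cluster had a median of 4186 UMIs in WT and 3732 in KO. In those of 2000 to 4000 UMIs the Actr2 ratio was 0.728 (0.642 to 0.827), of 4000 to 8000 it was 0.672 (0.610 to 0.740), and of 8000 to 16000 it was 0.738 (0.584 to 0.939), while the summed partners stood at 1.02, 1.01 and 1.01. Ribosomal protein RNA took 29.4% of the UMIs in WT and 29.6% in KO, mitochondrial RNA 2.66% and 2.51%, the nuclear RNA Malat1 3.17% and 2.82%, and haemoglobin RNA 0.0487% and 0.106%. With ribosomal protein, mitochondrial, haemoglobin, S100a8 and S100a9 UMIs out of the total, the Actr2 ratio was 0.702 (0.655 to 0.754), and the part of Malat1 was not tested. Above 1000 bases, genes with longer transcripts had lower KO to WT ratios in these barcodes. Over genes with at least 50 UMIs, the median was 1.07 where the longest annotated transcript has 1000 to 2000 bases. It was 0.939 for 3000 to 4000 bases and 0.802 from 6000 bases on. The longest transcript has 3631 bases for Actr2, 2565 for Actr3, 899 for Arpc3 and 4167 for Arpc5l. Among 2016 genes of 3000 to 4000 bases with at least 50 UMIs, 10.9% were at or below the Actr2 ratio. Among the 615 of these with at least 1000 UMIs, the median was 0.992 and 2.93% were at or below it. The part of length in the difference between Actr2 and its partners was not tested further.

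Arpc1a and Arpc1b, and Arpc5l and Arpc5, encode alternative forms of a position in the complex, and the balance within each pair was compared between cell types and genotypes. Arpc1a made up 8.12% (7.47 to 8.81) of the Arpc1 UMIs in WT and 8.57% (8.12 to 9.03) in KO resting Treg-like barcodes. It made up 6.85% and 8.09% in neutrophil-like and 40.6% (36.8 to 44.5) and 26.2% (22.9 to 29.8) in erythroid-like barcodes. The erythroid-like values rest on 262 and 170 Arpc1a UMIs, and T cell RNA averaged 141 CPM per gene in WT and 262 CPM in KO there, with Arpc1b at 144 and 187 CPM. Whether T cell RNA accounts for the difference between libraries was not tested. In WT erythroid-like barcodes Arpc1a was at 98.5 CPM against 54.5 CPM in resting Treg-like barcodes (1.81, 1.55 to 2.10), while Arpc1b was 0.234 times (0.210 to 0.259) and Actr3 0.242 times (0.215 to 0.271) the resting level. In KO Arpc1a was at 66.3 against 59.8 CPM (1.11, 0.940 to 1.30), an interval that holds 1. The erythroid-like class pools clusters 8 and 10, and haemoglobin took 15.5% of its UMIs in WT and 28.7% in KO. In cluster 8 alone Arpc1a was at 111 CPM in WT and 89.8 CPM in KO, both above the resting level. In cluster 10 it was at 20.7 CPM in KO. The part of pooling and of haemoglobin in the KO value was not tested.

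Arpc5l made up 28.5% (27.4 to 29.6) of the Arpc5 UMIs in WT and 28.4% (27.6 to 29.2) in KO resting Treg-like barcodes, an odds ratio of 0.998 (0.934 to 1.07). In effector barcodes it made up 20.8% (20.3 to 21.4) and 23.5% (20.7 to 26.5). In S-phase cycling-like barcodes it made up 25% (24.0 to 26.0) in WT and 31.3% (30.1 to 32.4) in KO, an odds ratio of 1.36 (1.27 to 1.47). In the globin and granule RNA cluster the shares were 23.2% and 32.6%, an odds ratio of 1.60 (1.31 to 1.97). The higher share in KO went with lower Arpc5 and not with higher Arpc5l, which stood at 187 and 179 CPM in the S-phase cycling-like and 158 and 161 CPM in the globin and granule RNA barcodes. The highest share was in B cell-like barcodes, 45.3% (37.7 to 53.1) in WT and 47.9% (38.7 to 57.2) in KO, from 77 and 57 Arpc5l UMIs.

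**Figure D4:**
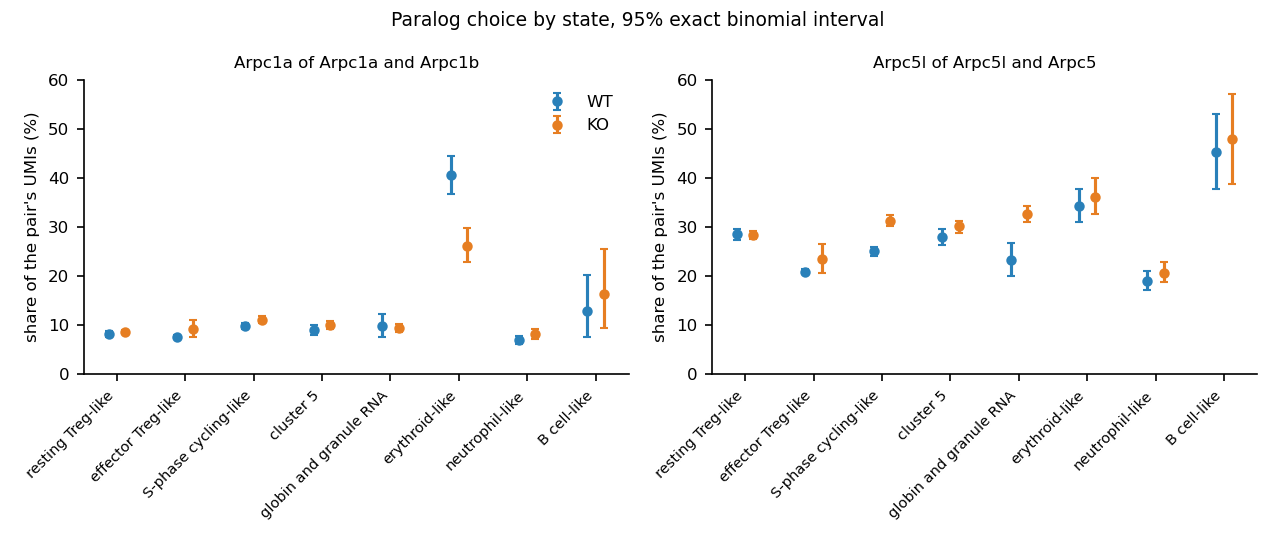
Share of Arpc1a in the Arpc1a and Arpc1b UMIs (left) and of Arpc5l in the Arpc5l and Arpc5 UMIs (right), in percent from 0, for WT and KO in 8 groups of barcodes with exact 95% binomial intervals. Arpc1a is near 8% in resting Treg-like barcodes and at 40.6% in WT erythroid-like ones, and the Arpc5l share is 25% in WT and 31.3% in KO S-phase cycling-like barcodes.

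The surrounding pathway was read in resting Treg-like barcodes from 7 lists with 66 genes, 60 of which had at least 50 UMIs there. Of these 13 were low and 4 high, against a background of 26.0% and 9.55%. Among the WASP and WAVE family activators 1 of 6 was low and 0 were high. Wasf2, which encodes WAVE2, was at 179 and 182 CPM (1.02, 0.962 to 1.08), and Was, the Wiskott-Aldrich syndrome gene, at 109 and 102 CPM (0.940, 0.873 to 1.01). Jmy was the lowest, at 16.0 and 10.7 CPM (0.667, 0.542 to 0.823), and Washc1 of the endosomal WASH complex the highest, at 43.0 and 53.0 CPM (1.23, 1.10 to 1.38).

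Of the partners of these activators 6 of 14 were low and 0 high, with a median of 0.846. Brk1 and Cyfip2, both of the WAVE regulatory complex, were at 181 and 206 CPM (1.14, 1.08 to 1.20) and at 97.4 and 84.5 CPM (0.867, 0.801 to 0.939). The WAVE subunit Cyfip1 was the lowest, at 9.17 and 4.79 CPM (0.522, 0.389 to 0.702), and Abi3 the highest, at 25.9 and 31.2 CPM (1.20, 1.04 to 1.40).

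Other factors keep or undo the branches. Of the 3 branch stabilisers, Hcls1, the blood cell relative of cortactin, was at 157 and 172 CPM (1.10, 1.03 to 1.16), Dbnl at 113 and 153 CPM (1.36, 1.27 to 1.46) and Cttn, cortactin, at 4.38 and 3.94 CPM (0.899, 0.615 to 1.33). Dbnl was the 1 high gene of that list. Of 8 inhibitors and debranching proteins with enough UMIs 0 were low or high. Coro1a, the coronin of blood cells, was at 2101 and 2306 CPM (1.10, 1.08 to 1.12), Gmfg at 460 and 400 CPM (0.870, 0.839 to 0.902) and Coro1c, the lowest, at 38.6 and 31.4 CPM (0.814, 0.717 to 0.926).

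Actin and its binding proteins had a median of 1.13, with 3 of 20 genes low and 3 high. Actb was at 8699 and 10147 CPM (1.17, 1.16 to 1.18) and Tmsb4x, which binds actin monomers, at 14187 and 15091 CPM (1.06, 1.06 to 1.07). The filament bundler Lcp1 was the lowest, at 397 and 282 CPM (0.710, 0.682 to 0.740), and the capping protein Capg the highest, at 146 and 222 CPM (1.52, 1.43 to 1.62). Of 8 formins, which start unbranched filaments, 3 were low and 0 high. Diaph1 was at 151 and 131 CPM (0.864, 0.811 to 0.920), Fmnl1 at 81.6 and 63.5 CPM (0.778, 0.712 to 0.850), Fhod1, the lowest, at 15.7 and 8.77 CPM (0.559, 0.449 to 0.697) and Diaph3, the highest, at 7.95 and 8.63 CPM (1.09, 0.829 to 1.43). Actr3b, a paralog of Actr3, had only 28 and 63 UMIs, at 2.85 and 2.99 CPM (1.05, 0.661 to 1.70).

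**Figure D5:**
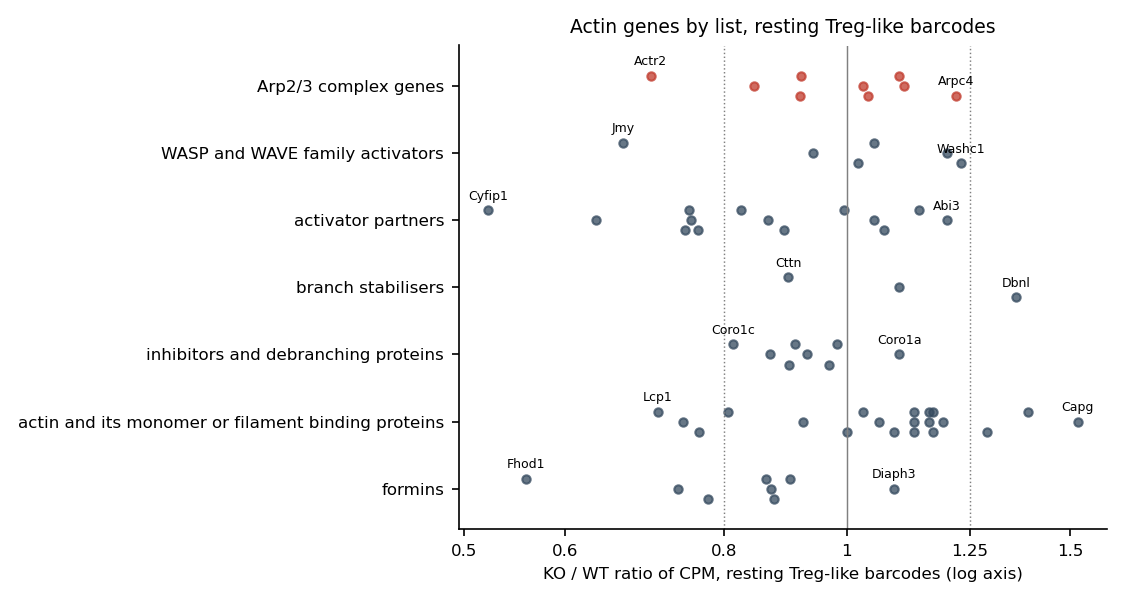
KO to WT ratio of CPM (log axis) in resting Treg-like barcodes for the 9 complex genes (red) and for the genes of 6 lists with at least 50 UMIs (1 point per gene, lowest and highest named), with dotted lines at the bounds of low and high ratios. Actr2 at 0.701 lies apart from the other complex genes, and the activator partners reach from Cyfip1 at 0.522 to Abi3 at 1.20.

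Across 18 sums of UMIs by cluster and library, each of at least 100 barcodes, the Actr2 level on the log2(CPM + 1) scale ran from 4.51 to 7.42. Its profile was most like that of Actr3 among the members (Pearson r = 0.930), and Arpc1a was the member least like the rest, with a median r of 0.415 to the other 8. Among 7515 other genes with at least 1000 UMIs, the profiles most like Actr2 were those of Copa (r = 0.961), Pdcd6ip (0.954), Cd200r1 (0.954) and Ankmy2 (0.952). Cd200r1 falls to 0 in at least 1 sum. The profiles most like the sum of the 8 partners were those of Cdc42 (0.978), the GTPase that activates WASP, Rab2a (0.977), Capzb (0.969), Pitpna (0.967) and Ntan1 (0.962). These r values are descriptions over sums that share 2 libraries and differ in depth and lineage.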

How the data were processed

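Single-cell 3′ RNA libraries of sorted splenic CD4+YFP+7AAD- cells, 1 WT and 1 KO, were analysed. What the authors deposited are UMI counts of each gene in each barcode, in whole numbers and not normalized, from Cell Ranger 5.0.1 and the mm10 genome per the labels. The study's doublet and quality filters had not been applied to them. The rule was 300 genes or more and up to 5% mt- UMIs per barcode, and doublets were removed only in an alternative, as the 5% of WT and 8% of KO barcodes with the highest Scrublet scores. The study's methods name these fractions the other way round between WT and KO. Counts were scaled to 10000 UMIs, log-transformed and reduced from 2000 variable genes to 30 principal components. A 20-neighbour graph was clustered by the Leiden method at resolution 0.5 (scanpy 1.11.5, igraph 0.11.9, scipy 1.17.1). Actin pathway genes, markers, haemoglobin, mt- and sex-linked genes and Zfp335 were left out of the variable genes.

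Clusters with at least 50% of the mean T cell gene CPM over clusters counted as T-lineage. A cluster took the class with most markers among its 10 leading genes, if 3 or more of its markers, and no fewer than 50%, stood 1.5-fold above their median in the remaining T-lineage clusters, with 1 CPM added and leading genes in at least 10% of barcodes. This rule was set after the clusters had been seen. UMIs were summed per library and cluster. Ratios have exact conditional binomial, CPM exact Poisson, shares exact Clopper-Pearson and odds ratios exact conditional 95% intervals. The ratios of odds ratios have normal intervals on the log scale. The calculation was tested on simulated data. Genes counted as low or high had a KO to WT ratio below 0.8 or above 1.25 and at least 50 UMIs over both libraries.

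The members, lists and tests were chosen with earlier results of these data known. Named were the 9 members, in each list the 2 genes with most UMIs and those with the lowest and highest resting ratio, and the 5 genes with the most similar profiles. Alternatives were other filters, doublet removal, thinning, denominators and resolution 1.0. The bins of depth and transcript length were added after seeing the data. The results of 1 pathway list and of 1 gene with a similar profile are not reported here.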

Additional observations from a re-analysis of the deposited data

How the results depend on the processing

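Of 43 alternative values, 34 stayed within the 95% counting interval of the reported value, 9 moved outside it and 0 crossed 1. In resting Treg-like barcodes the Actr2 ratio ranged from 0.667 to 0.739 over 8 alternatives and the median partner ratio from 1.01 to 1.05. The odds ratio of Actr2 against its partners there ranged from 0.664 to 0.748, with 0.748 at Leiden resolution 1.0, where the resting cluster held 1306 WT and 1972 KO barcodes. Over all kept barcodes the Actr2 ratio moved from 0.625 to 0.663 as a mean over barcodes, to 0.648 with haemoglobin, S100a8, S100a9, ribosomal protein and mt- genes out of the denominator, and to 0.596 in clusters 1, 3, 4 and 5 alone, a choice made after seeing the data. The odds ratio over all kept barcodes ranged from 0.766 to 0.796. The effector to resting ratio of the summed complex in WT moved from 1.44 to 1.51 without doublets, 1.46 at up to 10% mt- UMIs, 1.46 in barcodes thinned to 1000 UMIs, 1.36 with the reduced denominator and 1.47 at resolution 1.0. The cause of these shifts was not tested. No replicate could be left out and no paired analysis was possible because each genotype has 1 library. Effector KO values rest on 161 barcodes, and B cell-like values on 44 WT and 33 KO barcodes.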

Other observations

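Barcodes that the filter had removed, 6471 in WT and 4367 in KO with median depths of 1263 and 1361 UMIs, were not used above. In them Actr2 made up 6.27% (5.99 to 6.56) of the UMIs of the 9 genes in WT and 4.50% (4.21 to 4.81) in KO, an odds ratio of 0.705 (0.648 to 0.767). The Actr2 ratio was 0.638 (0.587 to 0.693) and that of the summed partners 0.905 (0.888 to 0.922). The Actr2 share of the complex was higher in these barcodes than among kept ones in both libraries, where it was 3.78% and 3.02%. They come from the same 2 libraries, were summed without being assigned to states and are no replicate.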
